A study of Mus musculus with 2 samples.

Results

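Genes whose products mark the layers of the mouse epidermis above the basal layer, 8 in all, were examined on every probe found for them on the array. They were Dmkn, Krtdap, Sbsn, Lypd3, Ly6d, Ly6g6c, Skint3 and Calml3. The genes were chosen by name with earlier results of these data known. Their probes were those whose RefSeq accession belongs to a gene of the set. This gave 11 probes for 8 genes, of 26580 probes named here for 20144 genes. The samples were labelled P3 primary keratinocytes, the name of cells that build the epidermis as its epithelium. Their RNA was not that of keratinocytes alone: beside all 9 basal keratinocyte markers, all 7 fibroblast and all 10 skeletal muscle markers were detected on both arrays, as was the haemoglobin gene Hba-a1 with signals of 435049 and 361119. Differences in tissue make-up between the samples and differences within keratinocytes cannot be told apart for any value below. One sample came from mice labelled Rac3-KO, which the labels call the control, and the other from mice labelled Rac1Rac3-DKO. Loss of Rac3 is thus part of both labels. Rac1 and Rac3 are small GTPases that relay signals to the actin cytoskeleton, and the series title concerns signals from keratinocytes to white adipocytes within the dermis. The labels give no promoter or Cre line for the deletion of Rac1, no sex and no number of animals pooled. Each genotype was measured on 1 array, so the differences below rest on a single comparison of samples and could not be tested. Precision is limited by that number of arrays.

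The epidermis renews itself from a basal layer of dividing keratinocytes, whose daughters move outward and change their products in order. The spinous and granular cells above the basal layer release small proteins and carry lipid-anchored proteins on their surface before they cornify. Dmkn (dermokine), Krtdap (keratinocyte differentiation-associated protein) and Sbsn (suprabasin) are secreted by these suprabasal cells. Lypd3 (also called C4.4A), Ly6d and Ly6g6c belong to the Ly6 and uPAR domain family, whose members are small folded proteins that are mostly held on the outer membrane by a GPI anchor. Skint3 belongs to the Skint family of mouse, which encodes immunoglobulin-domain membrane proteins of skin and thymus. Calml3 is a calmodulin-like calcium-binding protein of epithelial cells. It acts inside the cell, so the description of the set as secreted and surface proteins does not cover it.

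The scanner software called 56.9% of 55678 probes well above background for Rac3-KO and 52.9% for the array labelled Rac1Rac3-DKO. This is its term for a spot that exceeds its background by a margin, and not merely by any amount. Processed signal is the background-subtracted spot brightness, and its 75th percentile was 705 and 354. Levels below are log2 processed signals minus this percentile of their own array, and differences are the DKO-labelled level minus the Rac3-KO level. The brighter probe of Rac1 gave processed signals of 19847 and 12140, a difference of 0.28 with a software error of 0.20. Its further probe differed by -0.12, and the probe of Rac3 by 0.24 with an error of 0.24. On this scale Rac1 was therefore not 2-fold lower on either probe of the array labelled as lacking it, which is called DKO-labelled throughout. The Rac3 probe, with signals of 99.8 and 59.1, was well above background on both arrays, though both labels name Rac3 as lost. Whether the probes of Rac1 and Rac3 lie outside the deleted parts was not tested. Spike-in RNA differed by 1.04 (log2) before scaling and the 75th percentile by -0.99. On a spike-in scale every difference is lower by 2.03, which puts the Rac1 probes at -1.75 and -2.16 and Rac3 at -1.80, beside a median of -2.04 for all measured genes.

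Each of the 7 members that could be measured on both arrays was lower in the DKO-labelled sample, and the remaining one, Skint3, was detected in Rac3-KO alone. The 7 measured members were 2.42-fold to 7.40-fold lower, with a median difference of -2.06 (log2), and 0 were higher. Of 14145 genes measured on both arrays, 6.62% were at least 2-fold lower and 7.71% were 2-fold or more higher, and the median difference was -0.0077. Since the members were chosen with earlier results known, these shares stand beside them as description and not as a test. With each array scaled to its median instead, the share of higher calls moved from 53.8% (1091 of 2028) to 43.6% (891 of 2043), and on the spike-in scale to 0.114%. A drop of 4-fold or more was found for 4 of the members, Ly6d, Ly6g6c, Calml3 and Dmkn, and for 0.947% of measured genes. Of the 11 member probes, Rac3-KO RNA lit 10 above background and DKO-labelled RNA 9, and 0 spots were saturated. Each member probe was spotted 1 time, so its error comes from the scanner software. That error, at the median 0.20 on a log2 difference, combines the signal errors given within each of the 2 arrays. It was 0.20 on the probe used for each of the 7 measured members, so their spans have nearly the same width in log2. It does not cover the spread between arrays, cultures or animals, nor that between probes of a gene. The SD of a log2 difference over repeated spots was 0.093 at the median of 278 probes. Over 3578 genes with several measured probes, the SD between probes of a gene was 0.38 (root mean square, log2 difference). In RNA from a mixed population fewer cells of a type and less RNA per cell cannot be told apart.

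**Figure D1:**
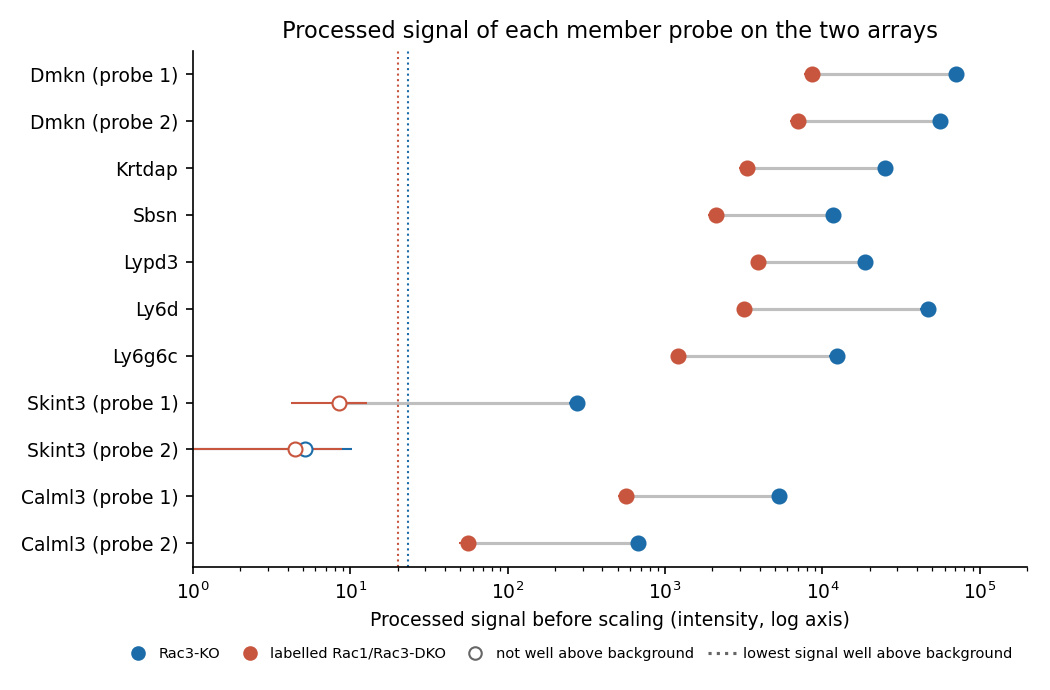
Processed signal (log axis) of each of the 11 member probes on the Rac3-KO array (blue) and the DKO-labelled array (red). Horizontal bars are the scanner software's signal error, shortened on the low side where it nears the signal, open circles are spots not well above background, and dotted lines are the lowest signals well above background, 23.4 and 20.1. All 9 probes measured on both arrays were dimmer on the DKO-labelled array. These signals are before scaling, and the 75th percentile over all probes was lower there too, at 354 against 705. Dimmer spots here are therefore not by themselves lower scaled levels.

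Dmkn, Krtdap and Sbsn, the secreted members, lie next to each other in the RefSeq gene table with 0 genes between Sbsn and Dmkn and 0 between Dmkn and Krtdap. The brighter probe of Dmkn gave a processed signal of 70927 (Rac3-KO) and 8531 (DKO-labelled), and the other probe 56055 and 6968. Scaled, these are differences of -2.06 and -2.02, or 4.18-fold and 4.04-fold lower. The probes of Dmkn thus differed from each other by much less than the error of 0.20 on either. Krtdap had signals of 24914 and 3304 and was 3.79-fold lower, with 2.87-fold to 5.002-fold spanned by 1.96 software errors. Sbsn had signals of 11766 and 2094 and was 2.82-fold lower, with a span of 2.14-fold to 3.73-fold. Dmkn and Krtdap differed from each other by 0.14 in their log2 differences and Krtdap and Sbsn by 0.42, within 1.96 times a combined software error of 0.29. Dmkn and Sbsn lay 0.57 apart, at that limit but within it. The gap passed the limit at 0.59 under quantile, 0.62 under loess and 0.64 under normexp processing, and barely with the deposited values. With probes of a gene averaged it was 0.54, within the limit, and other scalings and filters left it unchanged. The limit leaves out the SD of 0.38 between probes of a gene.

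The windows from 250 bases before to 50 after the RefSeq starts of these 3 genes are shown because the genes are adjacent and were all lower. RefSeq sequences of build GRCm38.p6 are given, all on the plus strand, as chr7:30751221-30751520 for Sbsn, chr7:30763506-30763805 and chr7:30776155-30776454 for an upstream and a downstream start of Dmkn, and chr7:30787655-30787954 for Krtdap. Capitals mark the letters TGAGTCA, a motif bound by AP-1 factors, and the letters TATAAA, which are the core of the box of that name.
Sbsn: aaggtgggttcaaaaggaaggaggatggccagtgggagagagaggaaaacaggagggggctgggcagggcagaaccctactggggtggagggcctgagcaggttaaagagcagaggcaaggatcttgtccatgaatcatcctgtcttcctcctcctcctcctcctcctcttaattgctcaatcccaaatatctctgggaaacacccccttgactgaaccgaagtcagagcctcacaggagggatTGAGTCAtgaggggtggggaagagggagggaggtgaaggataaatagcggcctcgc
Dmkn, upstream start: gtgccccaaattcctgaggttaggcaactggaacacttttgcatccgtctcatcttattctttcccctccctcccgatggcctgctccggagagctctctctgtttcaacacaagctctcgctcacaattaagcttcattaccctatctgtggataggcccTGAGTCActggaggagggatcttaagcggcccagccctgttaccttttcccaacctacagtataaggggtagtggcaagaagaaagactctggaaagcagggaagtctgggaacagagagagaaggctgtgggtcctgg
Dmkn, downstream start: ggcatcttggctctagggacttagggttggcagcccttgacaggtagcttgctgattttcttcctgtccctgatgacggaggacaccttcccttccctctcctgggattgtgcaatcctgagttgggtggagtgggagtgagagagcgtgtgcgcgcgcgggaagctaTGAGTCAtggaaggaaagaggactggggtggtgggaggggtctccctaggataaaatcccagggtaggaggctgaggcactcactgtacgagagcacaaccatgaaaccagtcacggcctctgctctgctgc
Krtdap: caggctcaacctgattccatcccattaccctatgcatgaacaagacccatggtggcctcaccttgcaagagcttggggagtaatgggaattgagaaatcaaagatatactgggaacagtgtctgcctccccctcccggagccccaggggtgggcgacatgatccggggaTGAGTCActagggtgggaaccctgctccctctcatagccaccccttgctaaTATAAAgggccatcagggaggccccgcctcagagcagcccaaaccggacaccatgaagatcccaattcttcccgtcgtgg

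All 4 windows hold TGAGTCA on the plus strand. The motif begins 89 and 82 bases before the upstream and downstream starts of Dmkn, 81 before that of Krtdap and 6 before that of Sbsn. Counted also in its reverse complement TGACTCA, it occurs in 1709 of 32851 promoter windows of the same length (5.20%). Over the whole set, 6 members have a window in the table, namely these 3, Lypd3, Ly6g6c and Skint3. The windows of Lypd3, Ly6g6c and Skint3 do not hold those letters. The letters TATAAA, searched on the other strand as the string TTTATA, begin 30 bases before the starts of Krtdap and Ly6g6c and occur in 13.6% of all windows. The motifs do not overlap in these windows, and both were chosen after the sequences had been read. A match describes letters only, and binding was not measured.

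The genes around the secreted members did not share 1 direction. Tmem147, on the Sbsn side, had signals of 5624 and 2900 and differed by 0.04. On the Krtdap side Ffar2, a receptor for short-chain fatty acids that is also known from leukocytes, had signals of 487 and 63.2 and was 3.87-fold lower, a difference of -1.95 that was -1.19 with normexp background correction. Its neighbour Ffar3 differed by 0.62. Atp4a, Gapdhs and Ffar1 were not measured on both arrays.

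**Figure D2:**
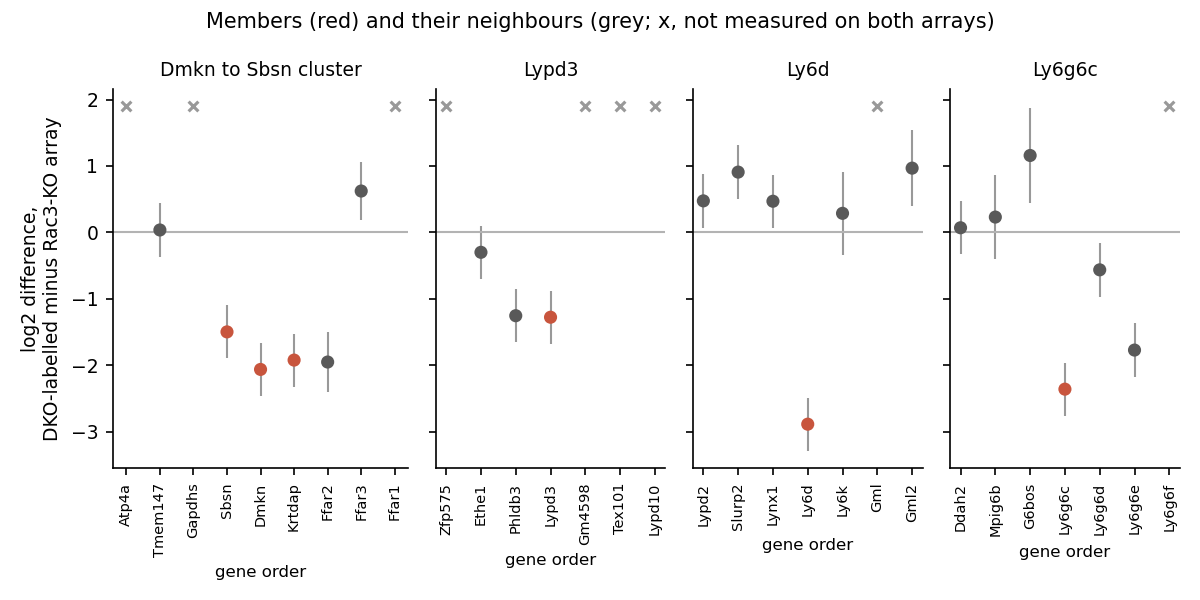
Log2 difference, DKO-labelled minus Rac3-KO array, for members (red) and the 3 nearest genes with a named probe on each side (grey), in the order of the reference gene table at 4 loci. Bars are 1.96 software errors, and crosses at the top mark genes not measured on both arrays. The 3 secreted members and Ffar2 lay between -1.50 and -2.06, whereas the measured neighbours of Ly6d lay above 0.

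Ly6d, Ly6g6c and Lypd3, the surface members of the Ly6 and uPAR domain family, were lower by unequal amounts. Ly6d, a surface antigen of stratified epithelia that is also used as a marker of early B cells, had signals of 46654 and 3169. Its difference of -2.89 was the lowest of the set, 7.40-fold lower with a span of 5.61-fold to 9.76-fold, and it ranked 24 from the lowest of 14145 measured genes. Ly6g6c, encoded among other Ly6 genes in the major histocompatibility complex, had signals of 12326 and 1207 and was 5.13-fold lower, at rank 60. Lypd3, a surface protein of suprabasal keratinocytes, had signals of 18751 and 3889 and was 2.42-fold lower, at rank 559, with a span of 1.84-fold to 3.20-fold. Lypd3 thus had the smallest difference of the 7 measured members. The log2 differences of Ly6d and Lypd3 lay 1.61 apart, 5.58 times their combined software error, which leaves out the spread between probes of a gene.

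Relatives of these surface proteins went in both directions. Of 33 further Ly6 and uPAR domain genes 29 had a named probe and 21 were measured. Past 2-fold, 5 of them were lower and 4 higher, around a median of 0.37. Lypd6b was 4.88-fold lower, Slurp1, a secreted Ly6 protein of keratinocytes, 3.47-fold and Ly6g6e 3.41-fold. The other two, named after their values were seen, were Lypd1 at 2.54-fold and Lypd6 at 2.51-fold, and a further probe of Lypd6 differed by 0.90. Slurp1 and Lypd1 had DKO-labelled signals of 22.7 and 21.7, close to the lowest signal well above background there. With normexp Slurp1 differed by -0.64, Lypd1 by -0.15 and Lypd6 by -0.91, so that of the 5 only Lypd6b and Ly6g6e stayed past 2-fold. With the probes of Lypd6 averaged its difference was -0.22. Ly6c1, known from endothelial cells and leukocytes, had signals of 26563 and 38997 and was 2.92-fold higher, Lypd5 2.904-fold, Ly6f 2.902-fold and Ly6a 2.72-fold, whereas on the spike-in scale all 4 fall below 0. Endothelial markers had a median of 0.62 on the same arrays and leukocyte markers of 1.03, and both medians fall below 0 on the spike-in scale. Their part in these values was not tested. Tex101, detected in Rac3-KO alone with a signal of 30.4, gave no fold. Since Ly6 genes have near-identical copies, their probes may pick up RNA of several genes.

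Genes beside the surface members were mostly unlike them in their differences. Lypd2, Slurp2 and Lynx1 on one side of Ly6d differed by 0.47, 0.91 and 0.47, and Ly6k and Gml2 on the other side by 0.29 and 0.97. Ly6d was thus the only gene of its neighbourhood with a measured difference below 0, on the scale of the 75th percentile. Beside Ly6g6c, Ly6g6e was 3.41-fold lower and Ly6g6d differed by -0.56, while G6bos, on the other side, had signals of 30.7 and 34.4 and a difference of 1.16, or 0.79 with normexp. Phldb3, next to Lypd3, was 2.39-fold lower, from 4182 to 881 in processed signal. Over the 4 loci 15 of 24 neighbours were measured, with 3 lower and 1 higher by 2-fold or more.

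**Figure D3:**
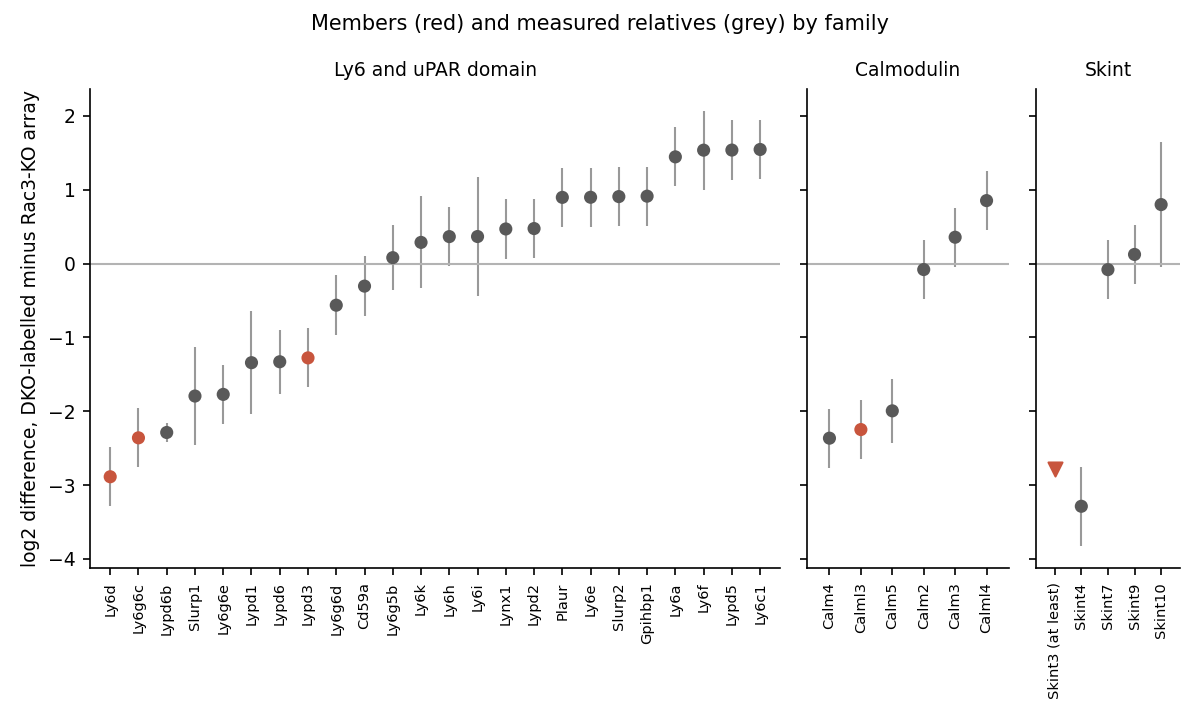
Log2 difference, DKO-labelled minus Rac3-KO array, of members (red) and their measured relatives (grey) in the Ly6 and uPAR domain, calmodulin and Skint families, each sorted from lowest to highest with Skint3 placed first. Bars are 1.96 software errors, and the red triangle is the at-least difference of Skint3. In each family some genes lay more than 1 below 0 and others above 0.

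Skint3 was detected in Rac3-KO alone. Its brighter probe had a processed signal of 275 there, 11.7 times the lowest signal well above background, and 8.45 on the DKO-labelled array, which is not well above background. Against the lowest level well above background on that array, Skint3 was at least 6.88-fold lower, a log2 bound of 2.78. With background correction by normexp the log2 bound was 1.27. Of 858 genes detected on the Rac3-KO array only, 21.9% had an at-least fold of 2 or more. The other probe of Skint3, designed to a different RefSeq transcript of the gene, had signals of 5.12 and 4.44, not well above background on either array, and gives no difference.

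Relatives of Skint3 were split. Skint1, the member of the family known for the selection of dendritic epidermal T cells, Skint6 and Skint8 were also detected on the Rac3-KO array only, with signals of 46.1, 39.8 and 88.2. Skint8 was at least 2.21-fold and Skint1 at least 1.15-fold lower, and Skint6 gave no fold. Skint4 had signals of 704 and 36.2 and was 9.77-fold lower, at rank 15 of all measured genes, while normexp moved its difference from -3.29 to -1.95. In contrast the bright Skint7, with signals of 137446 and 65295, differed by -0.08, Skint9 by 0.12 and Skint10 by 0.80. Skint5 and Skint11 were not measured on both arrays. Skint genes resemble each other closely in sequence, so these values may mix RNA of several genes. Of 6 markers of dendritic epidermal T cells 4 were measured, with a median of 0.73, and Xcl1 and Gzmb were not measured on both arrays. Their part in the Skint values was not tested.

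Calml3, the intracellular member, was lower on both of its probes. The brighter probe had processed signals of 5306 and 562, a difference of -2.25 or 4.75-fold lower with a span of 3.60-fold to 6.27-fold. The dimmer probe had signals of 672 and 56.3 and was 6.0005-fold lower, with a span of 4.39-fold to 8.21-fold, so that the spans overlap. With normexp the dimmer probe differed by -1.83 in place of -2.59, outside its span. Among 5 other calmodulin family genes, Calm4 and Calm5, which encode skin calmodulin-like proteins of mouse, were lower too. Calm4 had signals of 28256 and 2757 and was 5.15-fold lower, and Calm5 had signals of 638 and 80.4 and was 3.99-fold lower, a difference of -1.99 that was -1.28 with normexp. Relatives outside the skin-specific pair did not share this, since Calm2 differed by -0.08, Calm3 by 0.36 and Calml4 by 0.85. The 5 genes had a median of -0.08, which was 0.02 with probes of a gene averaged, and 2 of them passed 2-fold in the lower direction and 0 in the higher.

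The measured members were among bright genes of the arrays, and their ranks from the lowest difference ran from 24 for Ly6d to 559 for Lypd3 of 14145. All 7 measured members stayed above the 75th percentile on both arrays. Dmkn had levels of 6.65 and 4.59, Ly6d of 6.05 and 3.16, and Calml3, the lowest, of 2.91 and 0.66. Of the 21 pairs of measured members 11 had differences more than 1.96 combined software errors apart, and 9 of these pairs held Ly6d or Lypd3, the ends of the range. This error leaves out the SD of 0.38 between probes of a gene, so the count of pairs apart would be smaller with that spread included.

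**Figure D4:**
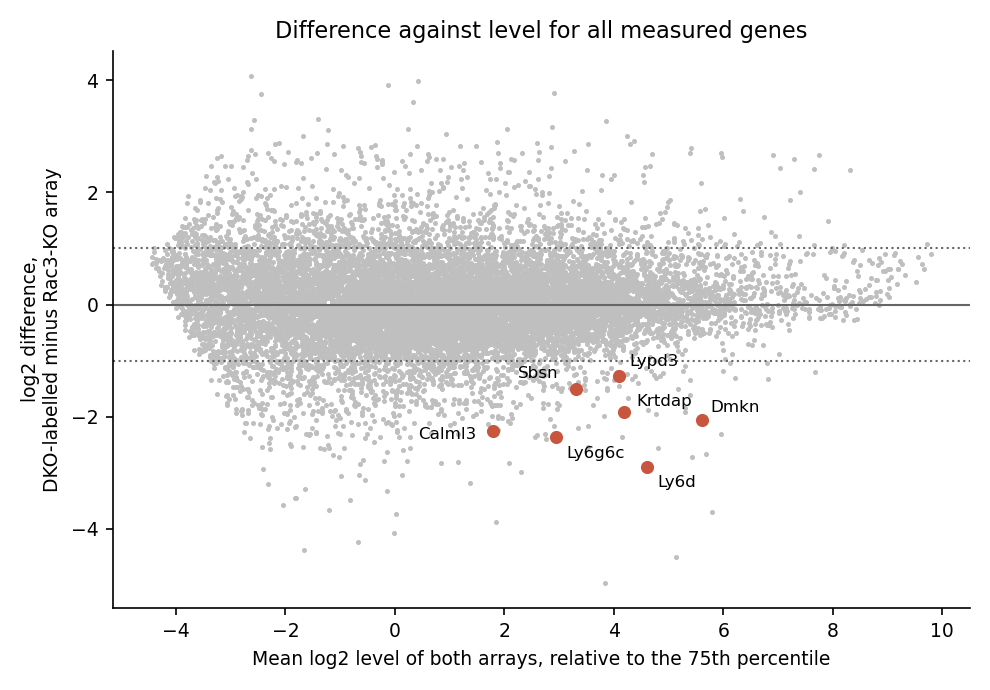
Log2 difference, DKO-labelled minus Rac3-KO array, against the mean log2 level of both arrays relative to the 75th percentile, for 14145 measured genes (grey) with the 7 measured members in red. Dotted lines mark a 2-fold difference. The members lay between -1.28 and -2.89.

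Most markers of the basal, suprabasal and granular layers were lower as well. Among 9 basal keratinocyte markers, 6 passed 2-fold in the lower direction and 0 in the higher, around a median of -1.53. Their summed processed signals before scaling were 449376 and 82413, and the scaled sums differed by -1.45 (log2). The same held for 6 of 8 measured suprabasal markers (median -1.54) and for 8 of 9 measured granular and cornified markers (median -1.35), again with 0 higher. Summed signals before scaling were 180849 and 4702 for the suprabasal list and 19857 and 4350 for the granular and cornified list. Scaled, these sums differed by -4.27 and -1.20 (log2). Most of the suprabasal sum came from Krt1 and Krt10, with Rac3-KO signals of 56501 and 117446, so its difference mainly describes these keratins and not the whole list. Of the 7 members 5 lay below the basal median, and Ly6d lay below the lowest basal gene, Krt15 at -2.31. Ly6g6c, at -2.36 with a software error of 0.20, was not apart from Krt15. Below the lowest granular and cornified gene, Klk5 at -2.78, lay 1 member, Ly6d. The keratins Krt1 and Krt10 of the same suprabasal cells had differences of -4.95 and -4.50, below every member. Krt2, with signals of 184 and 154, and Tgm3 were on the other side, at 0.73 and 0.72, as was Dst of the basal list at 0.11. Further probes of the basal genes Dst and Trp63 differed by 1.23 and 0.43, and that of Krt5 by -1.97. With 1 array a group, whether the members differ from these lists could not be tested.

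Markers of muscle, connective tissue and blood cells were on the other side on the same arrays. Skeletal muscle markers were higher by 2-fold or more for 9 of 10 genes and lower for 0, around a median of 2.51. Their summed signals before scaling were 321307 and 883668, and the scaled sums differed by 2.45 (log2). Of 7 fibroblast markers 1 was at least 2-fold higher (median 0.79), of 6 adipocyte markers 0 (median 0.57) and of 6 measured leukocyte markers 3. On the spike-in scale the medians of these lists other than muscle, which keeps 0.48, fall below 0. All 5 melanocyte markers, from cells that also sit in epidermis and hair follicles, differed by less than 0, with 3 at least 2-fold lower and a median of -1.30. Markers of cells other than keratinocytes were thus detected in both samples, and their part in the differences of the members was not tested.

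**Figure D5:**
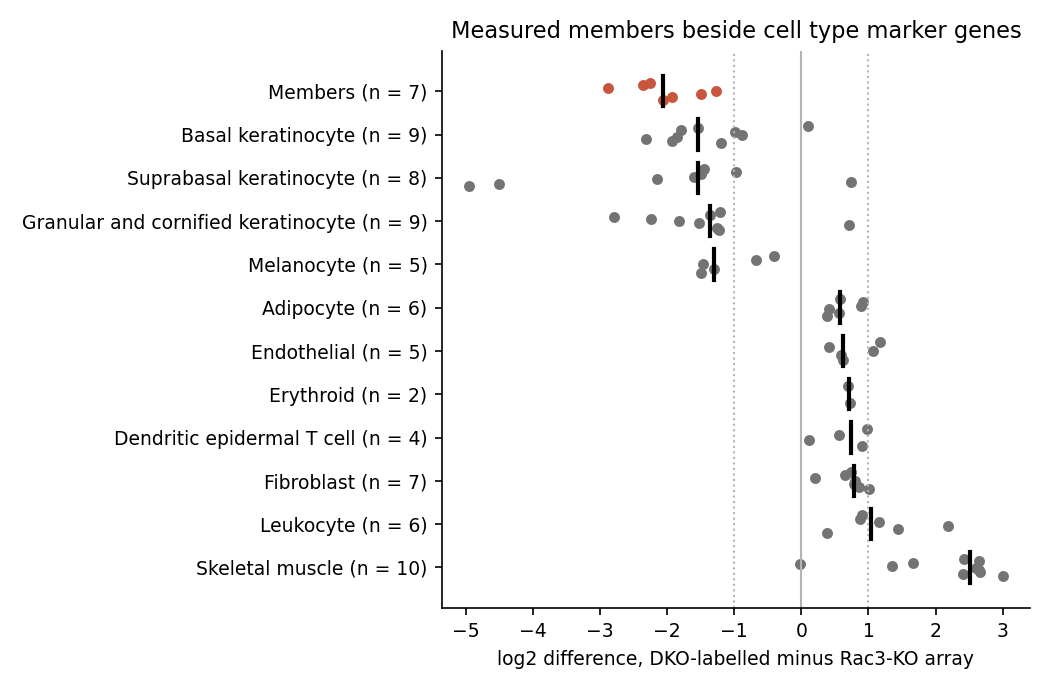
Log2 difference, DKO-labelled minus Rac3-KO array, of the 7 measured members (red) and of measured marker genes of 11 cell types (grey), with black bars at the medians and dotted lines at a 2-fold difference. The medians of the members and of the 3 keratinocyte lists lay between -1.35 and -2.06, and that of skeletal muscle at 2.51.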

How the data were processed

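RNA of samples labelled P3 primary keratinocytes was hybridised to 1-colour (Cy3) Agilent arrays, 1 per genotype, and groups were taken from the genotype labels. Spot intensity in the deposited scanner files came from Feature Extraction 10.10.1.1 with an array design on build mm9, per the file headers, whereas version 9.1 of that program stands in the submitters' processing notes. Values in the authors' table are log2 numbers. Set against the scanner files, each is that array's log2 signal less one constant near its 75th percentile, within 0.001 for 100% of 55246 probes spotted 1 time. The table's column medians are -3.72 and -3.62.

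Control spots and outlier spots (155 and 190) were left out, spots of a probe were averaged as log2 processed signal, and each array's 75th percentile over 55678 probes was subtracted. Probes were named by unversioned RefSeq accession through RefSeq's gene table (GRCm38.p6), from which names, gene order and promoter sequence were taken. Since the array's build differs, coordinates are given only for the promoter windows, in GRCm38.p6. Among a gene's probes the one brightest on average over both arrays was used, and the gene counted as measured if both arrays detected that probe. Where 1 array alone detected any probe of a gene, an at-least fold was taken for the detected probe brightest on that array. It was taken against the detection floor of the other array, or the dim probe's own level if higher. The software's errors on both arrays were combined. Counts used a fold of 2, without a test. Scaling, choice of probe and fold counts were tested on simulated data. Detection was set equal on both simulated arrays, so loss of detection and the at-least folds were not tested. Members and lists were chosen with earlier results of these data known. All members were named. Of each family and of the neighbours, the rule named up to 3 genes with the largest differences each way and those detected on 1 array. Others in the text were named after their values were seen, and 1 gene was left out of the lists and is not reported here. Analyses used Python 3.11.15, pandas 2.3.3, R 4.3.3 and limma 3.58.1. The alternatives in the closing section were other scalings, filters, thresholds and sources of the values, and normexp (offset 50), which was chosen after seeing the data and used the median spot signal.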

Additional observations from a re-analysis of the deposited data

How the results depend on the processing

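All 7 measured members stayed at least 2-fold lower under each of 11 alternatives to the processing, and 5 of them, all except Sbsn and Lypd3, passed a threshold of 3-fold. Under the alternatives other than spike-in scaling their differences kept within 1 software error of the values given: -2.16 to -2.04 for Dmkn, -2.98 to -2.88 for Ly6d and -1.37 to -1.22 for Lypd3. Spike-in scaling moved the median of the members to -4.10, put 13121 of all measured genes at 2-fold or more below and 15 above, and moved the leukocyte markers to a median of -1.003, which turned their direction. With no filter on detection 1521 genes were lower and 2122 higher, since signals at the floor enter, and Skint3 joined the members counted as lower, giving 8. At 1.5-fold 2335 genes were lower and 2581 higher, and at 3-fold 315 and 324. The planned normexp on the mean signal was not run, because the scanner files used here give a median and no mean spot signal. Spike-in scaling also turned Ly6c1 to -0.49, Ly6f to -0.498, Lypd5 to -0.497, Ly6a to -0.59 and G6bos to -0.88. With normexp on the median signal, Slurp1, Lypd1, Lypd6, Skint4, Ffar2, Calm5, G6bos and the dimmer Calml3 probe had smaller differences, as given beside them, Ly6k differed by 0.75, and the melanocyte median was -0.90. No paired analysis was possible because each group has 1 array. Signal over background limits Skint3 and the dimmer Skint and Ly6 relatives, whose DKO-labelled signals lay near or under the lowest signal well above background.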
